A study of Mus musculus with 12 samples.

Results

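The genes described here are 35 genes of protein entry, folding and stress sensing in the endoplasmic reticulum (ER), chosen by symbol from the 41708 genes of a liver RNA-seq count table. All 35 were found in the table, and all 35 passed the filter on low counts that left 12615 genes to test. They fall into 6 roles: the chaperone BiP with its partners (10 genes), the lectin chaperone cycle (3), the protein disulfide isomerase family (8), the sensors of the unfolded protein response with Xbp1 (5), the SEC61 channel with SEC62 and SEC63 (5), and the translocon-associated TRAP complex (4).

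The livers came from 7 hepatocyte-specific Ube4a knockout mice (LKO) and 5 control mice (flox), all on the C57BL6/J background and all sampled after a fast of 16 h. Both groups carried Ube4a alleles flanked by loxP sites on both chromosomes, and the LKO mice also carried Cre recombinase under the Albumin promoter, which is active in hepatocytes. Ube4a encodes a U-box ubiquitin ligase. Age, sex and litter are not stated in the sources used here, and p-values measure the spread between these 12 livers.

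Proteins bound for secretion enter the ER through the SEC61 channel, where BiP pulls and holds the chain, the lectins calnexin and calreticulin bind its sugars, and disulfide isomerases form its cysteine bridges. When unfolded protein draws BiP away, the membrane sensors IRE1 (Ern1), PERK (Eif2ak3) and ATF6 start the unfolded protein response: IRE1 splices Xbp1 mRNA, PERK slows translation, and ATF6 is cut to release a transcription factor. The hepatocyte secretes most plasma proteins, all of which pass through this machinery. A gene count does not tell the spliced from the unspliced form of Xbp1 mRNA.

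The best known element through which ATF6 and the spliced XBP1 protein act on ER chaperone genes is the ER stress response element (ERSE), written as CCAAT, then 9 bases, then CCACG. The 250 bases before each gene's start were searched for it on both strands, in the RefSeq promoter table of mouse build GRCm38.p6, which holds a window for 28 of the 35 genes. Manf, Hyou1, Sil1, Erp29, Atf6, Sec61a1 and Ssr2 were not searched. The element was found in 7 of these 28 genes, 2 times in Hsp90b1 and once in each of the others, against 35 of all 27025 genes in the table (0.13%). As the element is known from ER chaperone genes, this count describes them and is not an independent test. The 8 matches are shown with 15 bases on either side, in the direction of the gene, because of the 4 elements searched this one was found in the most of these genes. The element is in capitals, from CCAAT to CCACG where it lies in the gene's direction and from CGTGG to ATTGG where it lies on the other strand.
Hspa5 (chr2:34772010-34772058, plus strand): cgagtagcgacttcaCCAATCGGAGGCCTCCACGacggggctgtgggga
Calr (chr8:84847060-84847108, minus strand): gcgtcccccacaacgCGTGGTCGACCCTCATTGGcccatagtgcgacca
Hsp90b1 (chr10:86705623-86705671, minus strand): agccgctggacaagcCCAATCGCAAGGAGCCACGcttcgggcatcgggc
Hsp90b1 (chr10:86705518-86705566, minus strand): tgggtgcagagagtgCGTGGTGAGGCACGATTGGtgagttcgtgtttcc
Canx (chr11:50325785-50325833, minus strand): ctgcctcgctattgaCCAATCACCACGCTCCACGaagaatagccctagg
Pdia6 (chr12:17266476-17266524, plus strand): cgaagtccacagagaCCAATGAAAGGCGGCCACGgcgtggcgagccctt
Dnajc3 (chr14:118937812-118937860, plus strand): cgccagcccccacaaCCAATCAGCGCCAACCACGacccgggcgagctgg
Creld2 (chr15:88819505-88819553, plus strand): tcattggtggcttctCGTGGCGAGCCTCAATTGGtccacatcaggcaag
The matches began between 65 bases (Hspa5) and 212 bases (Hsp90b1) before the start. By role, 4 of the genes belong to BiP and its partners (Hspa5, Hsp90b1, Dnajc3, Creld2), 2 to the lectin cycle (Calr, Canx) and 1 to the disulfide isomerases (Pdia6). None of the searched windows of the sensors, of the SEC61 group or of TRAP held these letters. The whole window of Hspa5, the gene of BiP and the one on which the later comparison between genes turns, is printed next with its match in capitals.
Hspa5 (chr2:34771840-34772089, plus strand): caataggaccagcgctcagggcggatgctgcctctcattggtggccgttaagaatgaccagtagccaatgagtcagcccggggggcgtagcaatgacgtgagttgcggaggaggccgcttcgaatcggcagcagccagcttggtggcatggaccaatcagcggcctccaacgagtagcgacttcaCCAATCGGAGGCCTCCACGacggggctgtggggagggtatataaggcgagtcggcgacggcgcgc
Of the other elements searched on both strands, ERSE-II (ATTGG, 1 base, CCACG) was in 0 of the 28 genes, against 0.037% of all genes. The UPRE letters TGACGTGG were in 1 (Txndc5), against 0.603% of all genes. The C/EBP-ATF element TGATGCAA, bound by ATF4, was in 0, against 0.918%. The CCACG end of ERSE can overlap UPRE on the other strand, which starts with the same letters. Only exact matches were counted, so a window without one can still hold a near match. A match is a description of these letters and not a bound site.

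The libraries held 13399874 to 16525053 counts, and levels are given as CPM, a count relative to the library's total after TMM scaling, unless stated. Ube4a had 23.2, 25.96 and 34.0 CPM at the lowest, median and highest of the 7 LKO livers, against 134, 152, 136, 120 and 130 CPM in flox livers 1 to 5, which do not overlap (log2 fold change -2.33 ± 0.0904 SE, LKO over flox, edgeR adjusted p = 3.44e-09). Flox livers 4 and 5 stood apart from the rest on the first principal component (37.3% of the variance), at -45.8 and -64.8 against -15.3 to 32.1 in the other 10. The summed level of 11 neutrophil markers was 283 and 446 CPM in these 2 livers and 0.139 to 1.77 CPM in the other 10, and that of 11 Kupffer and macrophage markers was 651 and 929 CPM against 47.8 to 313 CPM. Sinusoidal endothelial and stellate markers were also highest there (277 and 380 CPM, and 239 and 349 CPM), whereas hepatocyte markers, mostly Alb, summed to 98299 and 92601 CPM there and to 96830 to 128190 CPM in the other 10, so that flox liver 5 was the lowest of all 12. The hepatocyte marker Cyp2e1 had 10760 and 8908 CPM in flox livers 4 and 5 and 13370 to 16080 CPM in the other 10. Ttr was also lowest in these livers, at 2031 and 1954 CPM against 2054 to 4320 CPM. The remaining hepatocyte markers (Alb, Apoa1, Tat, Cps1, Asgr1, Hnf4a and Trf) lay inside the range of the other 10 in both livers. B and plasma cell markers (43.1 to 138 CPM), cholangiocyte markers (36.3 to 63.1 CPM), T and NK cell markers (0.42 to 5.43 CPM) and pancreatic acinar markers (3.2 to 8.14 CPM, 5 of 7 at 0 in every liver) were low throughout. Among the B and plasma cell markers, Ighm had 24.7 and 43.8 CPM in flox livers 4 and 5. It had 17 CPM in LKO liver 7 and 0.535 to 4.67 CPM elsewhere. Igha, Igkc and Jchain in flox livers 4 and 5 lay inside the range of the other 10. The sum of the T and NK cell markers was highest in flox liver 5. Results on the ER genes are therefore also given without flox livers 4 and 5. In whole liver, fewer cells of a type and less RNA per cell cannot be told apart.

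None of the 35 ER genes passed the threshold of 0.05 on the adjusted p between LKO and flox livers. The edgeR quasi-likelihood test with Benjamini-Hochberg adjustment over all 12615 genes called 1 gene, or 0.00793%, which was Ube4a, and the ER genes' adjusted p ran from 0.505 to 0.995. DESeq2 called 26 of 18130 genes (0.143%) and again 0 of the 35, and limma with voom quality weights also called 0 of the 35. At an unadjusted p under 0.05 edgeR had 2 of the 35, Sec61b and Dnajc10, against 7.64% of all genes tested. With voom weights 7 of the 35 had such a p, beside 1653 of the 12615 genes. The median size of the log2 fold change, without its sign, was 0.103 over the ER genes and 0.111 over all genes.

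By sign, 27 of the 35 ER genes had a positive log2 fold change (LKO over flox), against 48.3% of all genes, and their median was 0.0543 against -0.00602 over all genes. Without flox livers 4 and 5 the count was 19 of 35, against 51.0% of all genes, with a median of 0.00938. Without LKO liver 6 it was 20 of 35, against 45.45% of all genes, with a median of 0.0374. Without all 3 of these livers it was 11 of 35, against 49.92% of all genes, with a median of -0.0287. LKO liver 6 is the highest liver for many of these genes and flox livers 4 and 5 are low in most of them, so leaving these livers out lowers the count by construction. Without LKO liver 4, a low liver, it was 28 of 35, against 46.05% of all genes. Without LKO livers 4 and 6 together it was 22 of 35, against 45.57% of all genes, with a median of 0.0295. This setting and the one without LKO liver 6 and flox livers 4 and 5 were chosen after seeing the data. The plot of fold changes shows each gene with its interval in both fits.

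**Figure D1:**
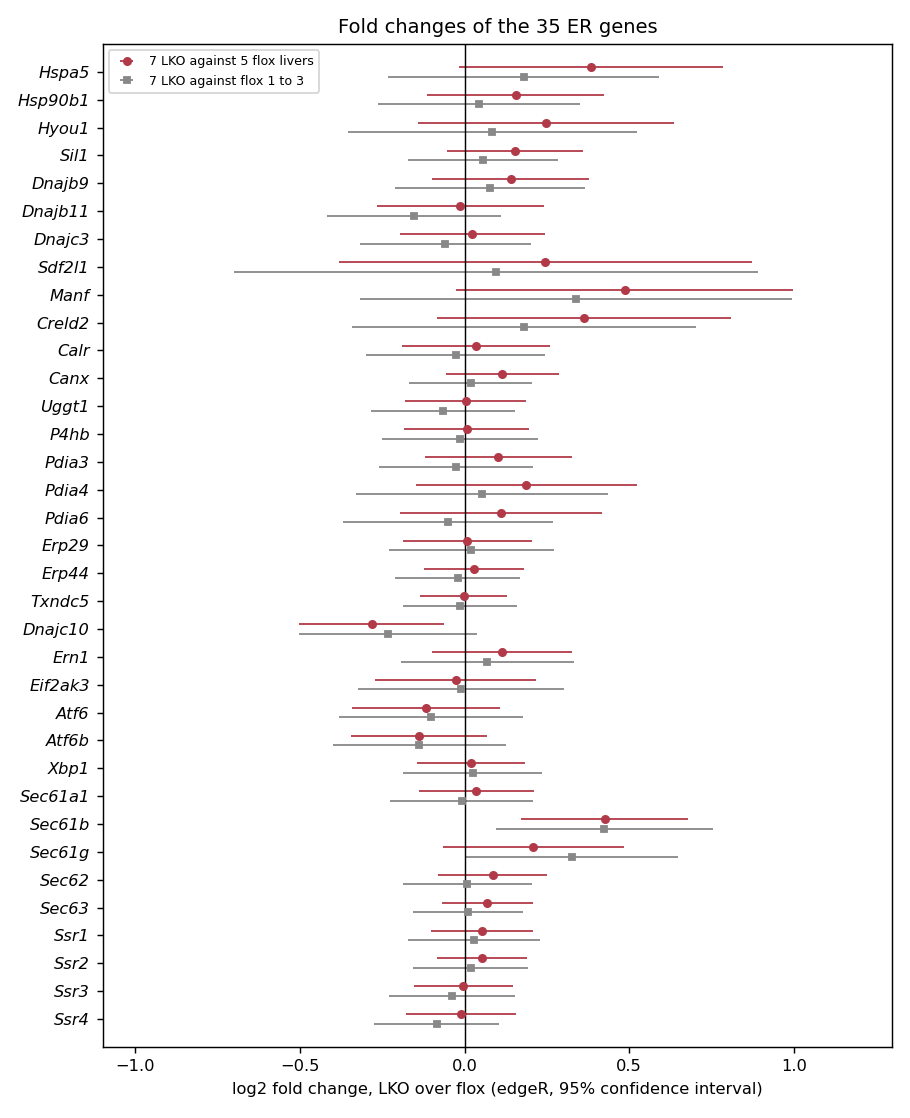
Log2 fold change of each of the 35 ER genes, LKO over flox livers, with its 95% confidence interval from edgeR; red circles use 7 LKO and 5 flox livers, and grey squares use 7 LKO and flox livers 1 to 3. The intervals of 33 genes in the first fit include 0, and those of Sec61b (0.17 to 0.68) and Dnajc10 (-0.50 to -0.06) do not.

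BiP and its partners held 5 of the 6 highest positive fold changes among the 35, the other being that of Sec61b. Of the 10 genes, 9 were positive and 0 passed the test, with a median log2 fold change of 0.2 and of 0.0808 without flox livers 4 and 5. Hspa5 encodes BiP, the ER member of the Hsp70 family and the central chaperone of the organelle, and lies at positions 34346327 to 34353321 of chromosome 2 in the coordinates of the deposited table. Hspa5 had 516, 855 and 1158 CPM at the lowest, median and highest of the LKO livers, against 625, 794, 740, 527 and 438 CPM in flox livers 1 to 5. The ranges overlap: LKO liver 4 lay below 4 of the 5 flox livers, while LKO livers 1, 2, 3 and 6 lay above all 5. Its log2 fold change was 0.38 ± 0.186 SE with a 95% interval of -0.02 to 0.78 (edgeR adjusted p = 0.661), and 0.18 without flox livers 4 and 5, the lowest of the flox livers for this gene.

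Manf, a small ER protein that binds BiP and slows release of its clients, had 33.1, 56.1 and 94.1 CPM at the lowest, median and highest LKO livers, against 38.8, 50.6, 44.9, 34.5 and 33.2 CPM in flox livers 1 to 5. It had the highest positive log2 fold change of the 35 (0.49 ± 0.236 SE, edgeR adjusted p = 0.662), which was 0.34 without flox livers 4 and 5 and 0.31 without LKO liver 6. LKO liver 4 lay level with the lowest flox liver and LKO livers 5 and 7 among the flox livers. LKO livers 1, 2, 3 and 6 lay above all 5 flox livers, LKO liver 6 the farthest. The span of Manf in the table overlaps those of the protein-coding genes Rbm15b and Vprbp, and the strand setting of the counting is not stated in the sources used here, so reads of the 3 genes cannot be told apart.

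Sdf2l1, which joins BiP and the co-chaperone of Dnajb11 in a complex, varied most. It had 7.23, 15.045 and 29.2 CPM at the lowest, median and highest LKO livers, against 20.1, 15.2, 11.5, 13.7 and 9.94 CPM in flox livers 1 to 5. The 4.04-fold span from LKO liver 4 to LKO liver 6 covered the whole range of the flox livers, and the log2 fold change was 0.25 ± 0.29 SE (edgeR adjusted p = 0.86), and 0.04 without LKO liver 6.

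Hsp90b1 encodes GRP94, the ER member of the Hsp90 family. It had 460, 607 and 761 CPM at the lowest, median and highest LKO livers, against 493, 634, 589, 468 and 465 CPM in flox livers 1 to 5 (log2 fold change 0.16, edgeR adjusted p = 0.785). Dnajb9, the co-chaperone ERdj4 and a target of XBP1, had 77.3, 90.3 and 117 CPM against 80.03, 96.6, 92.7, 82.8 and 77.7 CPM in flox livers 1 to 5 (log2 fold change 0.14, edgeR adjusted p = 0.779). For both genes all 5 flox livers lay inside the LKO range.

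The remaining partners had log2 fold changes of 0.36 for Creld2, an ER protein induced by stress, 0.25 for Hyou1 (GRP170), which exchanges the nucleotide of BiP, and 0.15 for Sil1, another such exchange factor. Those of the co-chaperones Dnajc3 (p58IPK) and Dnajb11 (ERdj3) were 0.02 and -0.01. Their edgeR adjusted p ran from 0.701 (Creld2) to 0.989 (Dnajb11).

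**Figure D2:**
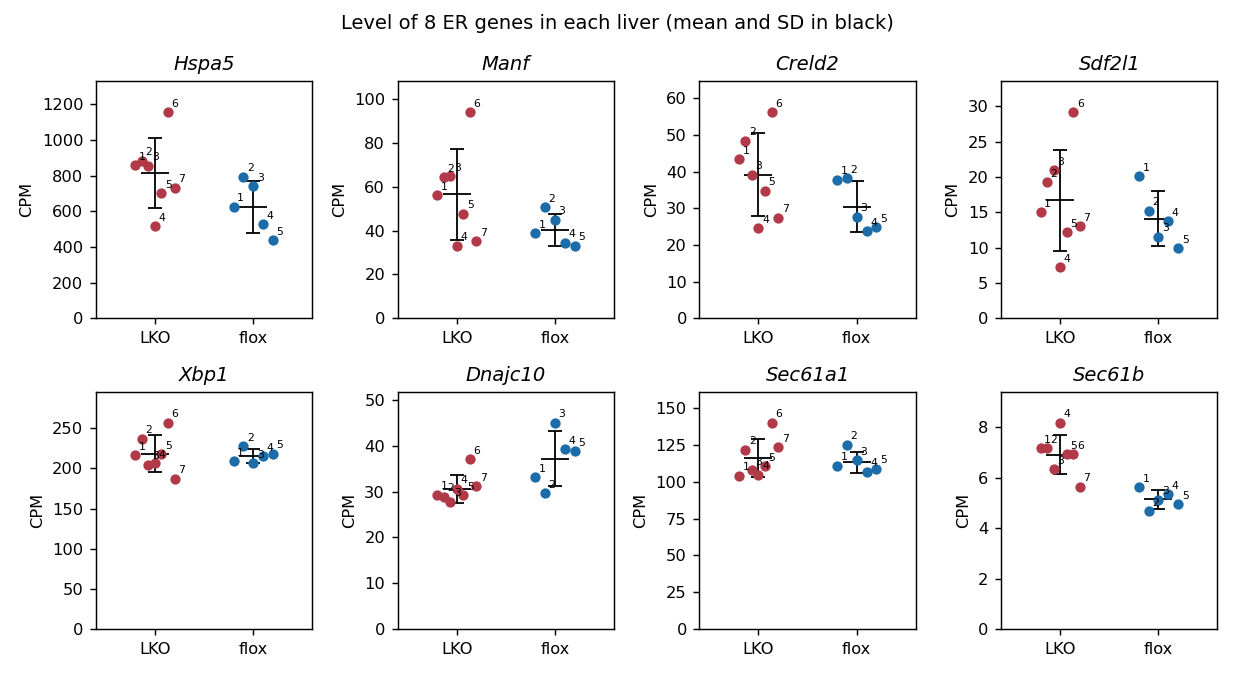
Level of selected ER genes in each liver in CPM on an axis that starts at 0, with the 7 LKO livers left of the 5 flox livers, points numbered by replicate and the mean and SD of each group in black. LKO liver 6 is the highest LKO liver for Hspa5 (1158 CPM) and Sdf2l1 (29.2 CPM), and the groups overlap in every panel except that of Sec61b.

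In the lectin cycle 3 of 3 genes had a positive log2 fold change and 0 passed the test, with a median of 0.0353 and of -0.0273 without flox livers 4 and 5. Calr encodes calreticulin, the soluble lectin chaperone. It had 475, 605 and 743 CPM at the lowest, median and highest LKO livers, against 588, 656, 596, 539 and 556 CPM in flox livers 1 to 5, so the flox range lay inside the LKO range (log2 fold change 0.04, 95% interval -0.19 to 0.26, edgeR adjusted p = 0.956). Canx, its membrane-bound relative calnexin, had 293, 323 and 345 CPM at the lowest, median and highest LKO livers, against 345, 291, 314, 278 and 254 CPM in flox livers 1 to 5. Flox livers 4 and 5 were the lowest of the 12 for Canx, and its log2 fold change of 0.11 was 0.02 without them. Uggt1, the enzyme that puts a glucose back on misfolded glycoproteins and so returns them to the cycle, had a log2 fold change of 0.00 ± 0.0859 SE (edgeR adjusted p = 0.995).

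Among the 8 genes of the disulfide isomerase family, 6 had a positive and 2 a negative log2 fold change, with a median of 0.0184. Without flox livers 4 and 5 the count was 2 positive of 8 with a median of -0.0172, and Pdia3, Pdia6 and Pdia4 had -0.03, -0.05 and 0.05. P4hb encodes the founding member, protein disulfide isomerase, which is also a subunit of prolyl hydroxylase. P4hb had 1493, 1711 and 1859 CPM at the lowest, median and highest LKO livers, against 1520, 2004, 1600, 1606 and 1690 CPM in flox livers 1 to 5. The groups overlap, flox liver 2 was the highest of all 12, and the 95% interval of its log2 fold change, -0.18 to 0.20, was centred on 0.01.

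Pdia4 (ERp72) had 122, 196 and 237 CPM at the lowest, median and highest LKO livers, against 163, 201, 175, 144 and 134 CPM in flox livers 1 to 5. LKO liver 4 was the lowest of all 12 and LKO liver 6 the highest (log2 fold change 0.19 ± 0.156 SE, edgeR adjusted p = 0.79). Pdia6 and Pdia3 (ERp57, the partner of the lectins) had log2 fold changes of 0.11 and 0.10. Those of Erp44, which retains thiol-linked proteins, of Erp29, a family member without the active cysteines, and of Txndc5 lay between -0.00 and 0.03. Erp29 overlaps the genes Naa25 and Tmem116 on the other strand, with the same limit as for Manf.

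Dnajc10 was the ER gene with the most negative fold change. It encodes ERdj5, a J-domain reductase that opens disulfide bonds of proteins sent for degradation, and lies at positions 83272302 to 83310892 of chromosome 2 in the table. Dnajc10 had 27.8, 29.4 and 37.2 CPM at the lowest, median and highest LKO livers, against 33.1, 29.7, 45.1, 39.3 and 38.9 CPM in flox livers 1 to 5. All 7 LKO livers lay below the flox mean of 37.2 CPM, but the ranges overlap, through flox liver 2 and LKO liver 6. Its log2 fold change was -0.28 ± 0.102 SE (edgeR adjusted p = 0.625) and -0.23 without flox livers 4 and 5.

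The sensors of the unfolded protein response lay within a narrow range, with 2 positive and 3 negative log2 fold changes, a median of -0.0271 and adjusted p from 0.748 to 0.971. Ern1, the gene of IRE1, had 57.7, 71.2 and 79.8 CPM at the lowest, median and highest LKO livers, against 59.4, 59.7, 82.9, 63.3 and 61.0 CPM in flox livers 1 to 5 (log2 fold change 0.11 ± 0.0994 SE). Flox liver 3 was the highest of all 12, and 6 of the 7 LKO livers lay above the other 4 flox livers. Eif2ak3, the gene of PERK, had 10.6, 14.6 and 17.015 CPM at the lowest, median and highest LKO livers, against 16.7, 14.1, 13.5, 14.7 and 15.7 CPM in flox livers 1 to 5 (log2 fold change -0.03). The flox livers lay inside the LKO range.

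Atf6 had 88.7, 108 and 127 CPM at the lowest, median and highest LKO livers, against 110, 101, 136, 119 and 118 CPM in flox livers 1 to 5 (log2 fold change -0.12 ± 0.105 SE). Atf6b, its relative, had 16.6, 21.9 and 25.1 CPM at the lowest, median and highest LKO livers, against 22.4, 26.7, 22.9, 24.0 and 24.0 CPM in flox livers 1 to 5 (log2 fold change -0.14 ± 0.0963 SE). For both genes the low end of the LKO livers lay below all flox livers, and neither passed the test. Xbp1, the transcription factor gene whose mRNA IRE1 splices, had 187, 216.5 and 257 CPM at the lowest, median and highest LKO livers, against 209, 228, 206, 215 and 218 CPM in flox livers 1 to 5. All 5 flox livers lay inside the LKO range, and the 95% interval of the log2 fold change was -0.15 to 0.18.

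In the translocon, Sec61b had the smallest p of the 35 ER genes and was the one gene of them whose ranges did not overlap. It encodes the small beta subunit of the SEC61 channel and lies at positions 47546207 to 47555025 of chromosome 4 in the table. Sec61b had 5.644, 6.94 and 8.18 CPM at the lowest, median and highest LKO livers, against 5.635, 4.67, 5.12, 5.35 and 4.94 CPM in flox livers 1 to 5. The LKO livers all lay above the flox livers, but the lowest, LKO liver 7, lay only just above flox liver 1, and on the FPKM scale, with the authors' own library sizes, these 2 livers changed places (5.008 and 5.016 FPKM). Ranges that do not overlap were found for 0.484% of all genes tested. The log2 fold change was 0.43 ± 0.118 SE with a 95% interval of 0.17 to 0.68 (edgeR adjusted p = 0.505), and 0.42 without flox livers 4 and 5. The gene held only 83 to 111 reads in LKO libraries and 66 to 94 reads in flox libraries, the fewest of the 35 genes.

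Sec61g, the gamma subunit, had 10.3, 14.1 and 16.52 CPM at the lowest, median and highest LKO livers, against 10.97, 10.1, 11.5, 12.1 and 14.2 CPM in flox livers 1 to 5. The ranges overlap, through LKO livers 5 and 7 and flox liver 5, and the log2 fold change was 0.21 ± 0.128 SE (edgeR adjusted p = 0.708). How reads that fit several near-identical copies were counted is not stated in the sources used here, and that limit touches both of these short subunit genes. Sec61a1, the gene of the pore itself, had 104, 110 and 140.1 CPM at the lowest, median and highest LKO livers, against 111, 125, 115, 107 and 109 CPM in flox livers 1 to 5. It had a log2 fold change of 0.04 with a 95% interval of -0.14 to 0.21, and its 5 flox livers lay inside the LKO range. Sec62 and Sec63, whose products assist entry after translation and recruit BiP to the channel, had log2 fold changes of 0.09 and 0.07.

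The 4 TRAP genes, whose products sit beside the channel and help some signal sequences engage it, had log2 fold changes between -0.01 (Ssr4) and 0.05 (Ssr1 and Ssr2), and adjusted p from 0.86 to 0.992. Ssr1 had 72.7, 79.9 and 95.6 CPM at the lowest, median and highest LKO livers, against 79.2, 86.5, 75.5, 77.0 and 77.2 CPM in flox livers 1 to 5. Ssr2 had 47.4, 52.5 and 58.3 CPM at the lowest, median and highest LKO livers, against 50.4, 53.5, 53.9, 49.6 and 49.3 CPM in flox livers 1 to 5. In both genes the flox livers lay inside the LKO range, and the 95% interval of Ssr3, the fourth gene with Ssr4, was -0.15 to 0.15.

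Per gene length, the mean levels of the ER genes ran from 2.45 to 588 FPKM over the 12 livers. P4hb was highest, at 588 ± 43.3 FPKM in LKO livers and 588 ± 64.2 FPKM in flox livers (SD over 7 and 5 livers). Calr (208 ± 31.0 and 204 ± 14.8 FPKM in LKO and flox livers), Hspa5 (192 ± 46.5 and 147 ± 34.2 FPKM), Hsp90b1 (146 ± 24.8 and 131 ± 18.6 FPKM) and Pdia3 (135 ± 16.2 and 127 ± 16.7 FPKM) followed. The neighbours Calr and Hspa5 overlap over livers, as do Hspa5, Hsp90b1 and Pdia3. The sensors were among the lowest, with Eif2ak3 at the bottom (2.42 ± 0.372 FPKM in LKO livers and 2.48 ± 0.219 FPKM in flox livers), whereas Xbp1 reached 66.8 ± 7.04 FPKM in LKO livers and 66.2 ± 2.48 FPKM in flox livers. The median over the 35 genes was 24.4 FPKM. FPKM divides by the annotated length, which is long for genes such as Erp29 (9060 bases) and Uggt1 (12801 bases), so their places depend on that annotation.

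**Figure D3:**
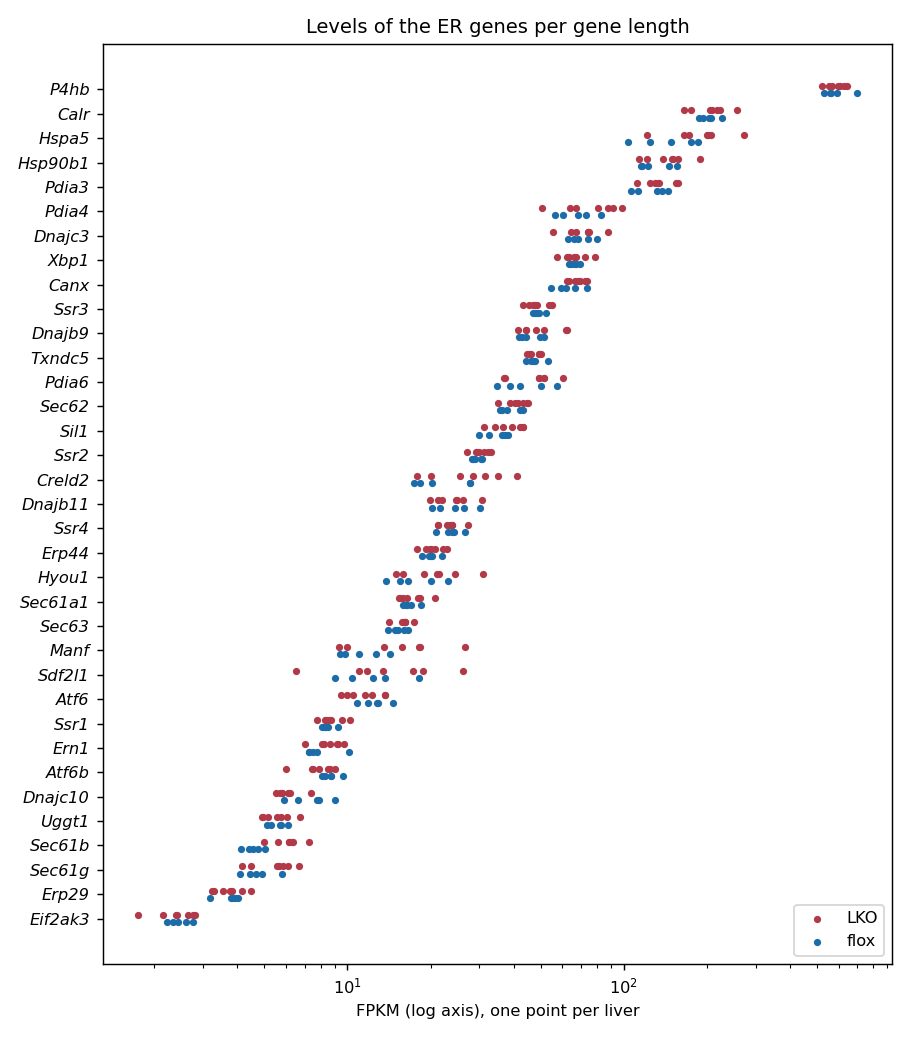
FPKM of each ER gene in each liver on a log axis, genes ordered by their mean, with LKO livers in red above flox livers in blue. Levels run from Eif2ak3 near 2.45 FPKM to P4hb near 588 FPKM, and within a gene the colours overlap. In Sec61b they do so only through LKO liver 7 (5.008 FPKM) and flox liver 1 (5.016 FPKM).

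Single livers stood out across these genes. LKO liver 6 was the highest of the 12 for 18 of the 35 ER genes, against 6.20% of all genes tested, and the lowest for 0. LKO liver 4 was the lowest for 7, against 11.3% of all genes, flox liver 5 for 8, against 13%, and flox liver 4 for 1, against 6.95%. Flox livers 4 and 5 were each the highest for 0 of the 35, against 4.07% and 17.1% of all genes. For BiP and its partners the mean deviation from the gene means, on the log2 scale, was 0.565 in LKO liver 6 and -0.332 in LKO liver 4, against -0.264 in flox liver 4 and -0.394 in flox liver 5.

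The span between single livers differed widely from gene to gene. Between LKO livers 6 and 4 the ratio of levels was 4.04 for Sdf2l1, 2.84 for Manf, 2.3 for Creld2, 2.24 for Hspa5, 1.95 for Hyou1, 1.93 for Pdia4 and 1.63 for Pdia6, against 1.36 for Dnajc3, 1.16 for Canx, 1.1 for P4hb, 0.911 for Sil1, 1.01 for Txndc5 and 0.848 for Sec61b. In the LKO livers the log2 SD ran from 0.0667 (Txndc5) to 0.643 (Sdf2l1), with a median over the ER genes of 0.174 against 0.229 over all genes. In the flox livers the median was 0.142 against 0.222. In LKO liver 6 neutrophil markers summed to 0.255 CPM and Kupffer markers to 107 CPM, the first inside the range of the other LKO livers and the second the lowest of them, and their part in the result was not tested. Over all 35 ER genes the mean log2 deviation was -0.127 in flox liver 4, -0.174 in flox liver 5 and -0.137 in LKO liver 4. Over the sensors with Xbp1 it was 0.0178 in flox liver 4 and 0.0286 in flox liver 5. Flox livers 4 and 5 had high neutrophil and Kupffer marker levels beside this low mean over the ER genes. The part of these markers in that mean was not tested either.

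**Figure D4:**
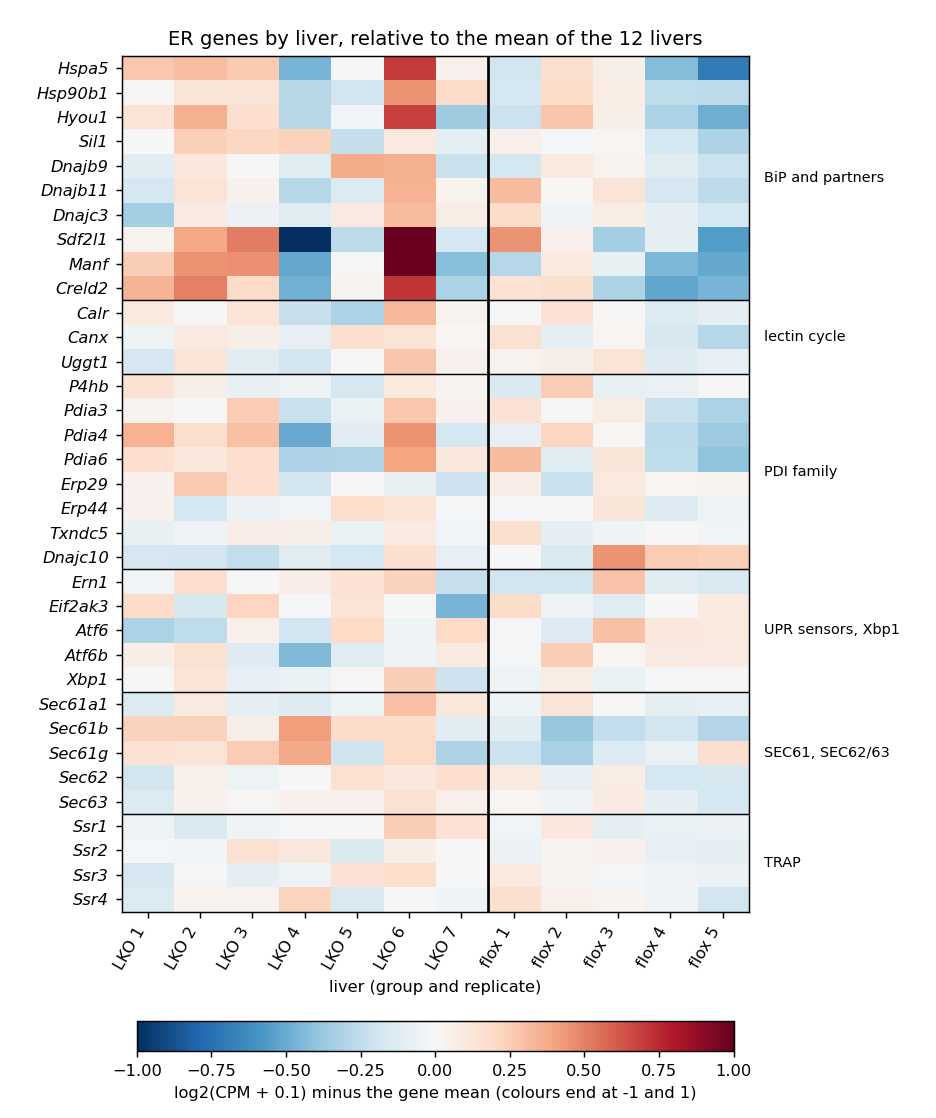
Level of each ER gene in each liver as log2(CPM + 0.1) minus that gene's mean over the 12 livers, with LKO livers 1 to 7 left of flox livers 1 to 5 and genes ordered by role. LKO liver 6 is red over BiP and its partners (mean 0.565), and LKO liver 4 (-0.332) and flox livers 4 and 5 (-0.264 and -0.394) are blue.

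How far the other 34 genes followed Hspa5 from liver to liver was measured by the correlation of log2 CPM over the 12 livers, an analysis chosen after the values were seen. The points share library scaling, and both groups are pooled, so r within the 7 LKO livers is given too. Pearson's r with Hspa5 was above 0.8 for 6 of the 34: Pdia4 (0.921), Manf (0.913), Hyou1 (0.908), Hsp90b1 (0.893), Creld2 (0.866) and Pdia3 (0.848), against 0.373% of all 12614 other genes. Spearman's rho of these 6 was 0.923, 0.937, 0.895, 0.797, 0.909 and 0.657, in the same order. Within LKO livers r was 0.941, 0.919, 0.872, 0.878, 0.923 and 0.868, and it was also above 0.8 there for Sdf2l1 (0.975, the highest of the 34), Pdia6 (0.895), Dnajb11 (0.853) and Calr (0.845). Without LKO liver 6 and flox liver 5, the 2 farthest from the median of Hspa5, r was still above 0.8 for the first 4 genes and was 0.796 for Creld2 and 0.694 for Pdia3. With the same 2 livers left out, r was 0.594 for Sdf2l1, 0.554 for Pdia6, 0.361 for Dnajb11 and 0.673 for Calr. Without flox livers 4 and 5, r was 0.71 for Pdia3 and 0.824 to 0.925 for the others of the first 6 genes.

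By a permutation test with 100000 orders of the livers, two-sided, the unadjusted p of r was under 0.05 for 14 of the 34 ER genes, all with positive r, against 10.6% of all genes. Adjusted over all 12614 genes, 0 ER genes and 0 genes in all passed 0.05. The number of orders limits how small an adjusted p over so many genes can be. These counts of 0 are therefore partly set by it. The smallest adjusted p were those of Manf (permutation p = 1e-05, the smallest these permutations can give, adjusted p = 0.0631) and Pdia4 (permutation p = 2e-05, adjusted p = 0.0841), and for rho the smallest adjusted p was 0.168. The median r was 0.448 over the ER genes and 0.0249 over all genes.

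By role, the median r with Hspa5 was 0.764 for its 9 partners, 0.667 for the lectin cycle, 0.363 for the disulfide isomerases, 0.343 for the SEC61 group, 0.317 for TRAP and 0.201 for the sensors. Dnajc10 (-0.287) and Atf6 (-0.247) had the lowest values. Among the 20 genes of the whole table most like Hspa5, 6 were ER genes of the present list. By falling r, the others were Rfx4 (0.911), Atp2a2 (0.907), Adprhl2 (0.878), a gene without a symbol (0.877), Ubxn4 (0.864), Abhd4 (0.863) and Psma5 (0.86). Below them came Irgq, Gm42746, Exosc7, Ubfd1, another gene without a symbol, Cldn1 and Hsd17b11 (0.858 to 0.837). Of these, Atp2a2 is the calcium pump of the ER and Ubxn4 is an ER protein of the degradation pathway. Of the other genes with an ERSE match, Pdia6 (0.763), Calr (0.736), Canx (0.667) and Dnajc3 (0.437) had lower r than Hsp90b1 and Creld2 over the 12 livers. Pdia4 and Pdia3, with r above 0.8, had no exact match in their windows. That of Pdia3 holds CCAAT, 9 bases and then CCACA in place of CCACG.

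**Figure D5:**
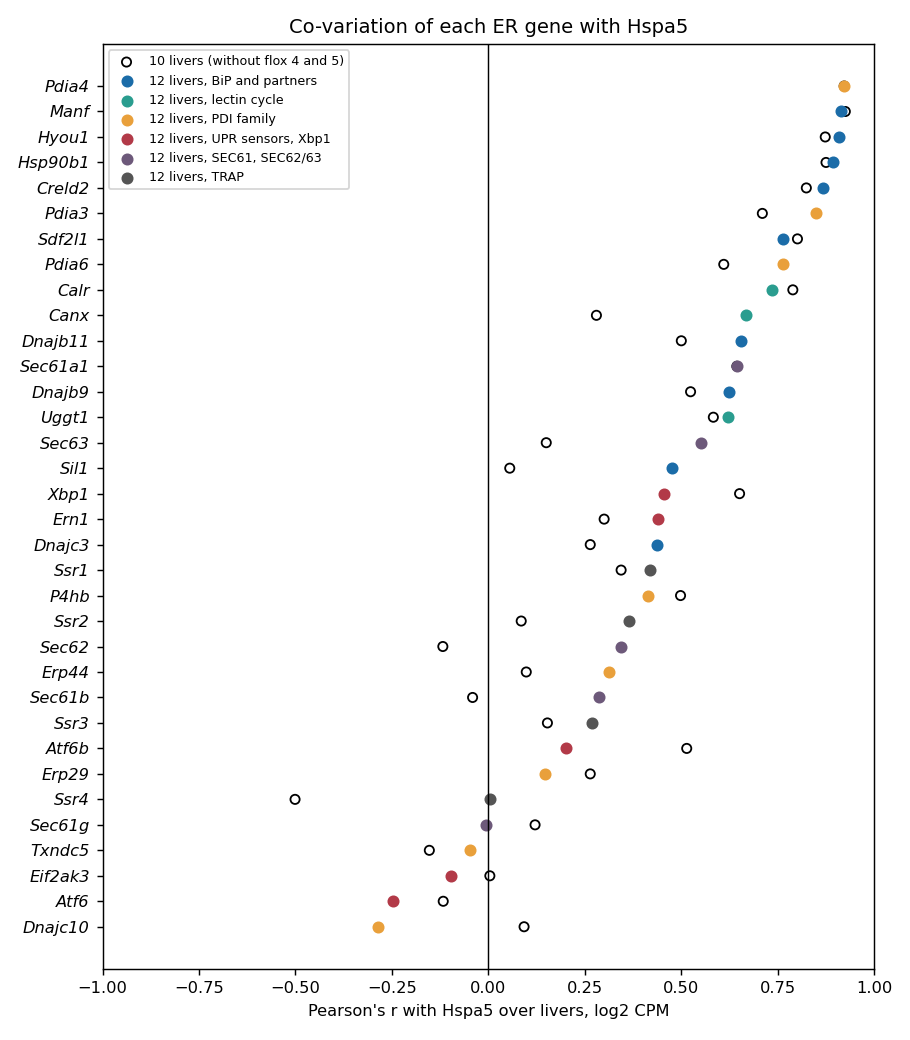
Pearson's r of log2 CPM between Hspa5 and each of the other 34 ER genes, filled circles over 12 livers and coloured by role, open circles over the 10 livers without flox 4 and 5. Pdia4 (0.921) and Manf (0.913) lie at the top and Dnajc10 (-0.287) at the bottom.

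The rest of the secretory pathway was read from 9 further gene lists, of which 127 genes were tested. In edgeR 0 of the 127 passed the adjusted threshold, as in DESeq2 and in limma with voom weights, and 7 (5.51%) had an unadjusted p under 0.05, against 7.64% of all genes. Positive log2 fold changes were found for 62 of the 127, against 48.3% of all genes. All 6 tested genes of the signal recognition particle and its receptor were positive (median 0.0603; Srp9 0.08 and Srp14 0.09), as were all 5 of signal peptidase, which cuts the signal sequence (median 0.11; Spcs2 0.13 and Sec11a 0.14). Without flox livers 4 and 5 each of these lists had 4 positive genes.

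Of the 12 oligosaccharyltransferase genes, which attach sugars to the entering chain, 8 were positive (median 0.0332). Magt1 had 67.8, 78.1 and 88.6 CPM at the lowest, median and highest LKO livers, against 70.8, 72.0, 67.4, 64.9 and 63.2 CPM in flox livers 1 to 5 (log2 fold change 0.22, edgeR adjusted p = 0.625), and Rpn2 had a log2 fold change of 0.09. Other translocon and membrane complex genes were 7 positive of 15 (median -0.00725; Tmco1 0.12 and Emc10 -0.13), and 3 of 15 without flox livers 4 and 5 (median -0.0804). Other folding genes were 11 of 24 (median -0.00222), among them Tmx2 (-0.84, at 0.516 to 1.78 CPM in LKO livers and 1.44 to 2.05 CPM in flox livers) and Prkcsh, a subunit of glucosidase II (-0.17, edgeR adjusted p = 0.625 for both).

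ER-associated degradation, which returns misfolded proteins to the cytosol, had 7 positive genes of 19 (median -0.0235). Without flox livers 4 and 5 it had 4 of 19 (median -0.0629). The log2 fold change of Sel1l, the scaffold of an ER ubiquitin ligase, was 0.17. It was 0.05 without flox livers 4 and 5, the lowest livers for Sel1l. In the PERK and ATF4 arm 5 of 12 were positive (median -0.197, and -0.0558 without flox livers 4 and 5). Ddit4 led it, with 10.7 to 30.5 CPM in LKO livers and 15.1 to 69.2 CPM in flox livers. Its log2 fold change of -0.87 (edgeR adjusted p = 0.65) was 0.03 without flox livers 4 and 5, and Ppp1r15a, which reverses the block of translation, had -0.26. COPII coat and retrieval genes were 9 of 25 (median -0.0361; Sec23a -0.20 and Kdelr2 -0.13), and the genes of ATF6 processing, the CREB3 family and the CCAAT-binding factor NF-Y were 4 of 9 (median -0.0093; Nfyb 0.14 and Creb3 -0.09).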

How the data were processed

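Per the labels' protocols, whole-liver RNA was extracted with TRIzol before NEBNext Ultra library preparation. The counts per gene were deposited by the authors as whole numbers and used as deposited. The FPKM values were also deposited by the authors, and each was found to be its count over gene length and over 1 size per library; the gene length is a column of the same deposited table. The submitters' processing notes name featureCounts 1.5.0-p3, HISAT2 2.0.5, fastp, CASAVA 1.8, DESeq2 1.20.0 and build GRCm39. Gene identifiers, however, belong to the C57BL/6NJ annotation, so coordinates are printed as the table gives them. Neither the strand setting nor the treatment of reads that fit several genes is stated in the sources used here. Of the 35 genes, 14 overlap another annotated gene.

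Genes were filtered with filterByExpr, libraries were scaled by TMM, and LKO was compared with flox in edgeR 4.0.16 (robust quasi-likelihood test, no covariate, Benjamini-Hochberg over 12615 genes, threshold 0.05). DESeq2 1.42.0, limma 3.58.1, other scalings, filters, FPKM on log2 scales with pseudocounts of 0.1 and 1, a replicate block and left-out livers were alternatives. R 4.3.3 and Python 3.11.15 were used. Every pair of libraries in a group differed beyond sampling noise (chi-square over its degrees of freedom, 8.47 to 86.5). The members and all gene lists were chosen with earlier results of these data known. Named are Ube4a, every member, the 2 genes of smallest p of each pathway list (1 of them is not reported here) and, with levels by liver, 12 members covering the 6 roles and the 2 of smallest p in each role. Promoter windows come from the RefSeq table of GRCm38.p6.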

Additional observations from a re-analysis of the deposited data

Results flagged for a closer look

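Within each group, the highest and the lowest liver of each of the 35 ER genes and of Ube4a were compared with the nearest other liver by Dixon's criterion at 95%, which chance exceeds in about 1 of 20 groups. It was exceeded in 4 of 72 groups (5.56%). Dnajc10 was high in LKO liver 6 at 37.17 CPM, with the next LKO liver at 31.14 CPM. Erp29 was low in flox liver 2 at 29.07 CPM, with the next flox liver at 34.37 CPM. Ern1 was high in flox liver 3 at 82.93 CPM, with the next flox liver at 63.26 CPM. Ube4a was high in LKO liver 7 at 34 CPM, with the next LKO liver at 26.81 CPM and all flox livers at 120 CPM or more.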

How the results depend on the processing

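No ER gene passed the threshold under any of the 26 alternatives, and Ube4a kept its direction and its call in all of them. DESeq2 called 26 genes in all and the replicate block 2, against 1 as reported; leaving out each liver in turn gave 1 to 2, with 2 without LKO liver 7. Same-numbered livers do not come from the same animal and deviated together in only 1 of 5 pairs by more than 0.1 (correlations -0.289 to 0.104), so the numbers were not taken as pairs. No flox liver is numbered 6 or 7, so the replicate block takes the group difference from livers 1 to 5 of each group. The number of positive ER genes was 11 without LKO liver 6 and flox livers 4 and 5, a setting chosen after seeing the data, against 27 as reported. In the other settings it ran from 19 to 31, and was 22 under the replicate block. The positive share of all genes in those settings ran from 40.55% to 51.03%. Among them, the setting without LKO livers 4 and 6 was also chosen after seeing the data. Between 0 and 8 ER genes changed sign in a setting, and 16 without LKO liver 6 and flox livers 4 and 5, all of them uncalled. Scaling by total counts moved the median of all genes to -0.0356. Low depth limits Sec61b, the ER gene with the fewest reads. At an unadjusted p under 0.05 the replicate block had 6 ER genes, against 2 as reported, beside 830 of 12615 genes.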
